A study of Mus musculus with 4 samples.

Results

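Kitl, Kit, Cxcl12 and Cxcr4 make up a pair of ligands, each with its receptor, and were followed here in fetal mouse gonads at 12 days post coitum. They were chosen as the spots that the platform annotation gives to these 4 gene symbols. Each gene had 1 spot, so 4 of 17664 spots on the array were members, and all 4 had a value on all 4 arrays. Gonads of wild type XY embryos (labelled male) were set against gonads of wild type XX embryos (labelled female) on 2 of the 2-colour arrays. Gonads of XX embryos without Wnt4 (labelled female Wnt4 -/-) were set against wild type XX gonads (labelled female Wnt4 +/+) on the other 2. Wnt4 encodes a Wnt-family ligand made in the XX gonad. The dyes were swapped within each pair: XX wild type RNA was labelled with Cy3 on replicate 1 and with Cy5 on replicate 2. Per the labels, each genotype came from more than 100 embryos whose gonads, cut away from the mesonephros, were pooled in several groups before RNA isolation. Whether a pair's arrays carried separate RNA is not in the labels, so p-values reflect array-to-array spread that may be technical. The study asked, by its title, about genes of blood vessel development in the testis.

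Kit ligand, also called stem cell factor, is made as a membrane protein that can be shed, and it activates the receptor tyrosine kinase Kit on the cell that meets it. In the fetal gonad Kit sits on germ cells, whose survival, division and migration need the ligand, and the ligand comes from the somatic cells around them. Cxcl12 is a chemokine secreted by stromal cells. It acts through the G protein-coupled receptor Cxcr4, which guides germ cells into the mouse gonad and is also used by endothelial and blood cells.

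All values below are log2 ratios to XX wild type RNA on the same array, with each array centred on its median, so a value above 0 means more RNA than in XX wild type. Errors are SD with n = 2 arrays. Which way the ratios run is likely but not settled: the design makes XX wild type the comparator throughout, but no label names the numerator. XY replicate 1 and Wnt4 null replicate 1 share a dye orientation and correlated as deposited at r = -0.62 across 12264 spots. XY replicate 1 was turned, because the Y-linked gene Eif2s3y then had 2.22 and 2.26 on the XY arrays and Xist, the transcript of the inactive X, -1.67 and -1.20. The other 3 arrays kept their deposited sign. A second Eif2s3y spot was at 0.64 and -0.45. In the Wnt4 null pair, where both RNAs are labelled female, Eif2s3y had 1.53 and 0.22, with 0.70 and -1.33 at its second spot. Xist had -0.48 and 0.49 there, and Wnt4 had -0.08 and -0.18. The part of Wnt4 that its spot reads, relative to the deletion, is not known, so the Wnt4 values check nothing about the label. After the turn, arrays of one dye orientation resembled each other (r = 0.62 and 0.68), while the dye-swapped arrays of a pair did not (r = 0.06 in XY and -0.46 in Wnt4 null). The gap between the arrays of a pair had a median of 0.30 in XY and 0.39 in Wnt4 null over the 12264 spots with 4 values.

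Both ligands had ratios that repeated across the dye swap, Kitl below 0 and Cxcl12 above 0 in XY and in Wnt4 null gonads, while the receptors did not repeat in every pair. Kitl was 2.58-fold lower in XY and 2.17-fold lower in Wnt4 null gonads than in XX wild type gonads. Cxcl12 was 1.53-fold higher in XY and 2.64-fold higher in Wnt4 null gonads. Kit averaged 1.35-fold lower in XY gonads, and its Wnt4 null arrays had opposite signs. Cxcr4 had opposite signs in both pairs. In RNA of whole gonads, fewer cells of a type and less RNA per cell cannot be told apart.

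**Figure D1:**
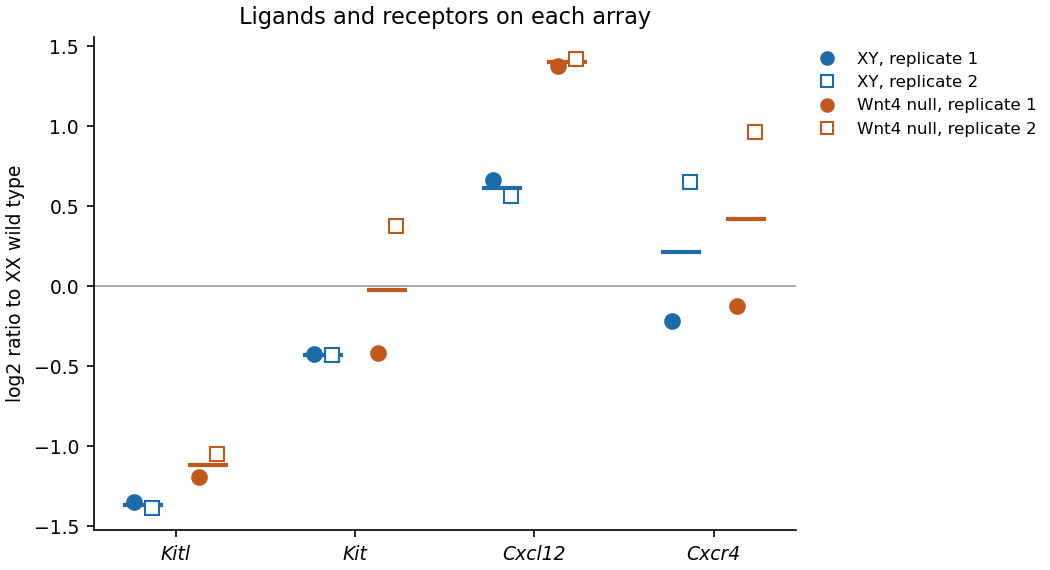
Log2 ratio to XX wild type (vertical axis) of Kitl, Kit, Cxcl12 and Cxcr4 on each of the 4 arrays; filled circles are replicate 1, open squares replicate 2, and bars the mean of a pair, with XY in blue left of Wnt4 null in orange. Kitl lies between -1.38 and -1.05 on all 4 arrays and Cxcl12 between 0.57 and 1.42, while Cxcr4 is below 0 on both replicate 1 arrays and above 0 on both replicate 2 arrays.

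The ligand of Kit had the lowest values among the members. Kitl stood at -1.35 and -1.38 in XY and at -1.19 and -1.05 in Wnt4 null gonads. All 4 values were below -1, and the arrays of a pair differed by 0.04 in XY and 0.15 in Wnt4 null, less than the median gap of all spots. The means were -1.37 ± 0.03 in XY and -1.12 ± 0.10 in Wnt4 null gonads. By mean ratio Kitl was the 34th lowest of 12264 spots in XY and the 20th lowest in Wnt4 null. These ranks depend on direction: with XY replicate 1 as deposited Kitl was the 5619th lowest in XY, with Wnt4 null replicate 1 turned (Cy3 over Cy5) the 7591st lowest in Wnt4 null, and with all 4 arrays turned the 34th and 20th highest. A limit of size, 1.5-fold with the same sign on both arrays of a pair, was passed by 2.69% of spots in XY (1.32% lower and 1.37% higher) and by 1.05% in Wnt4 null (0.497% lower and 0.554% higher). Of the 4 members, 1 passed it in XY (Kitl) and 2 in Wnt4 null (Kitl and Cxcl12). Kitl was also among the 43 spots (0.351%) past this limit as lower on all 4 arrays, and no member was among the 34 spots (0.277%) past it as higher on all 4.

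Across all spots, limma without a dye term called 0 of 12264 (0%) in each comparison at an adjusted p under 0.05, so 0 of the 4 members were called. At an unadjusted p under 0.05 it had 686 spots in XY and 354 in Wnt4 null. A dye term per spot, shared by the 4 arrays, gave 330 calls in XY (2.69%; 1.33% lower and 1.36% higher) and 24 in Wnt4 null (0.196%; 0.0652% lower and 0.130% higher). Kitl in XY had a limma adjusted p of 0.185 without the dye term and passed with it (adjusted p = 0.0186; 0.00148 to 0.0186 over the centring and scaling settings with a dye term). Kitl in Wnt4 null had a limma adjusted p of 0.868 without the dye term and missed the limit with it (adjusted p = 0.0615). With the dye term and centring in printed blocks, deposited centring or scaled arrays it was called there (limma adjusted p = 0.0193, 0.0383 and 0.0188). The 95% interval of the mean, not adjusted for the number of spots, ran from -1.74 to -0.99 in XY and from -1.50 to -0.75 in Wnt4 null without the dye term.

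Upstream of the RefSeq start of Kitl lie the 250 bases shown here because Kitl differed from XX wild type on all 4 arrays (GRCm38.p6, plus strand, chr10:100015571-100015820, in RefSeq the stretch just before the first exon). Capitals mark matches, on either strand, to 4 motifs: TATAAA (the TATA box), GGGCGG (the GC box bound by Sp1), CTTTGA (the core read by the TCF and LEF factors of Wnt signalling) and AACAAT (a SOX core). The arrays measured no promoter, and a match is a description of letters.
Kitl promoter: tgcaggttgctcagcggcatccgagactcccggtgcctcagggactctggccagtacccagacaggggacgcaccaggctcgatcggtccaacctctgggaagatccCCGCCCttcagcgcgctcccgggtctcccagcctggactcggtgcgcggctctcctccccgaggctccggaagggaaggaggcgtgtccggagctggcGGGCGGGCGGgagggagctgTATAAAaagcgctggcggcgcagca
It held 1 TATA box starting 25 bases before the start and 3 GC boxes, of which a pair overlapped by 2 bases, and no match to CTTTGA or AACAAT. Among 32851 RefSeq promoter windows of this length, 12.4% held TATAAA, 32.7% GGGCGG, 13.8% CTTTGA and 9.42% AACAAT. Its GC content was 69.2%, against a median of 52.4% over these windows.

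The receptor of this ligand, Kit, had -0.43 on both XY arrays, with a mean of -0.43 ± 0.003. In Wnt4 null gonads it had -0.42 on replicate 1 and 0.38 on replicate 2, with a mean of -0.02 ± 0.56. The XY arrays repeated each other more closely than those of nearly all spots (0.685% of spots had a smaller gap), while the Wnt4 null values lay on either side of 0. Neither comparison passed: in limma without the dye term the adjusted p was 1.0 in XY and 1.0 in Wnt4 null, and with it 0.276 and 0.979. The unadjusted 95% interval in XY, -1.07 to 0.21, holds 0.

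Genes of germ cells, where Kit acts, were set beside it. Of 37 listed, 21 had 4 values; in XY 13 were below 0 on both arrays and 1 above, against 21.9% and 22.3% of all named genes. Their median was -0.50 (-0.65 and -0.46 on the arrays), against 0.003 over all named genes. By size 6 were at least 1.5-fold lower and 0 higher on both XY arrays (against 1.32% and 1.37% of all spots). Limma with the dye term called 7 lower (against 1.33% of all spots). Stra8, needed for entry into meiosis, had -1.74 and -2.18 in XY, and Tfap2c, a transcription factor gene of early germ cells, had -1.55 and -1.14. Both passed with the dye term (limma adjusted p = 0.0129 and 0.0217), not without it (0.248 and 0.359). In Wnt4 null gonads the germ cell median was -0.08 (-0.37 and -0.03). There 8 of 21 were below 0 on both arrays and 2 above (against 15.8% and 16.0% of all named genes). By size 2 were lower and 1 higher (against 0.497% and 0.554% of all spots). Stra8 had -0.70 and -1.39 there, and Dppa5a, a gene of pluripotent cells and early germ cells, 0.65 and 0.77. The part of germ cells in the Kit values was not tested.

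Markers of blood and mast cells, which also carry Kit, were also set beside it. Of 12 measured, 9 had opposite signs on the XY arrays and 9 on the Wnt4 null arrays, against 55.8% and 68.3% of all named genes. Their medians were -0.01 and 0.04. Gata2, a transcription factor gene of blood progenitors that other tissues also use, was the 1 gene past the limit of size in each comparison. It had -1.94 and -1.88 in XY and -1.62 and -1.35 in Wnt4 null, and passed in both with the dye term (limma adjusted p = 0.0129 and 0.0462), not without it (0.165 and 0.607).

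Cxcl12 measured 0.66 and 0.57 in XY gonads and 1.38 and 1.42 in Wnt4 null gonads. All 4 values were above 0, and both Wnt4 null values exceeded both XY values. The means were 0.62 ± 0.07 in XY and 1.40 ± 0.03 in Wnt4 null gonads. Cxcl12 was the 10th highest of 12264 spots in Wnt4 null and the 295th highest in XY. With XY replicate 1 as deposited it was the 7301st highest in XY, with Cy3 over Cy5 the 5620th highest in Wnt4 null, and with all 4 arrays turned the 10th lowest in Wnt4 null and the 295th lowest in XY. It passed the limit of 1.5-fold on both arrays in Wnt4 null, where 0.554% of spots were that much higher, but not in XY, where replicate 2 was 1.48-fold higher. With arrays scaled to a common spread Cxcl12 passed the limit in XY too. With limma it was called in Wnt4 null with the dye term (adjusted p = 0.0462; 0.00978 to 0.0462 over the centring and scaling settings) and not without it (0.607). In XY it missed the limit either way (limma adjusted p = 0.0600 with and 0.460 without the dye term), and was called with the dye term and centring in printed blocks or scaled arrays (0.0356 and 0.0111). The unadjusted 95% intervals without the dye term ran from 0.25 to 0.98 in XY and from 1.03 to 1.77 in Wnt4 null.

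The same stretch before the RefSeq start of Cxcl12, the other gene with ratios on 1 side of 0 on all 4 arrays, is given with the same 4 motifs in capitals (GRCm38.p6, plus strand, chr6:117168285-117168534).
Cxcl12 promoter: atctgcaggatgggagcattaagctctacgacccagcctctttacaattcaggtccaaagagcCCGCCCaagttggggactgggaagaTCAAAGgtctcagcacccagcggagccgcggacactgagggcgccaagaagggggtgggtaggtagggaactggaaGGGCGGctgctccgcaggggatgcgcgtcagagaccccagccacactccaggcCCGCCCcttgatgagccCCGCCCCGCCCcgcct
It held 5 GC boxes, of which a pair overlapped by 1 base, and 1 match to CTTTGA on the minus strand, 162 bases before the start. No TATAAA or AACAAT was in this window, and its GC content was 64.4%.

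Cxcr4, the receptor of Cxcl12, had -0.22 and 0.65 in XY and -0.12 and 0.96 in Wnt4 null gonads. Replicate 1 was below 0 and replicate 2 above 0 in each pair. The difference between replicates 1 and 2, divided by 2, was -0.44 in XY and -0.54 in Wnt4 null. It was larger in size than the means of 0.22 ± 0.62 and 0.42 ± 0.77. This part holds dye orientation together with any other difference between the arrays of a pair. The gap between arrays was wider than for 89.7% of spots in XY and 87.9% in Wnt4 null. It was not called by limma in XY (adjusted p = 1.0 without and 0.345 with the dye term) or in Wnt4 null (1.0 and 0.247). The unadjusted 95% intervals without the dye term, -0.78 to 1.21 in XY and -0.57 to 1.41 in Wnt4 null, hold 0. With the dye term the interval still held 0 in XY (-0.05 to 0.48) and did not in Wnt4 null (0.16 to 0.68).

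**Figure D2:**
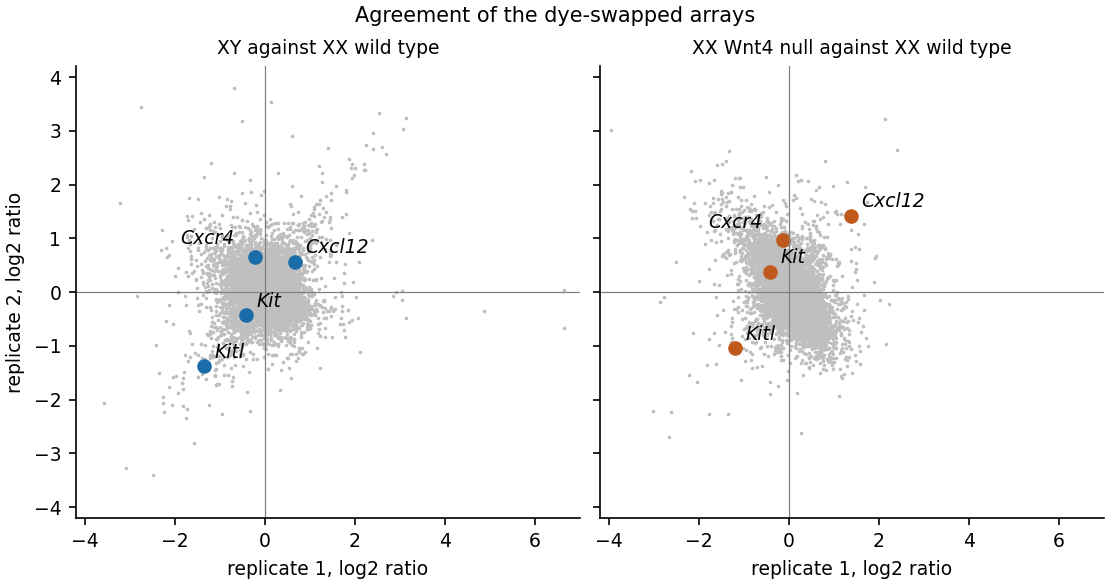
Replicate 2 (vertical axis) against replicate 1 (horizontal axis), log2 ratios to XX wild type, for 12264 spots in grey and the 4 genes in colour, with XY left and Wnt4 null right. Kitl sits in the lower left and Cxcl12 in the upper right of both panels, and Cxcr4 in the upper left of both, where the grey cloud of the Wnt4 null pair also leans (r = -0.46).

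XY and Wnt4 null gonads were then compared through XX wild type, the comparator of both pairs, in the same fit. The labels do not state that both pairs used the same XX wild type pool, and a difference between pools cannot be told apart from one between XY and Wnt4 null. Cxcl12 was lower in XY than in Wnt4 null by a log2 difference of -0.78 (unadjusted 95% interval -1.30 to -0.26). The difference was -0.24 for Kitl (-0.78 to 0.29), -0.41 for Kit (-1.31 to 0.50) and -0.20 for Cxcr4 (-1.61 to 1.20). Without Wnt4 null replicate 1 the Kit difference was -0.80, and without replicate 2 -0.01. None of the 4 was called, with limma adjusted p from 0.350 for Cxcl12 to 0.743 for Cxcr4 with the dye term and 1.0 for each without it. Over all spots limma called 0 of 12264 (0%) with and without the dye term, with 1098 and 197 at an unadjusted p under 0.05. The difference in Cxcl12 between the genotypes is therefore reported as not passing the correction.

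**Figure D3:**
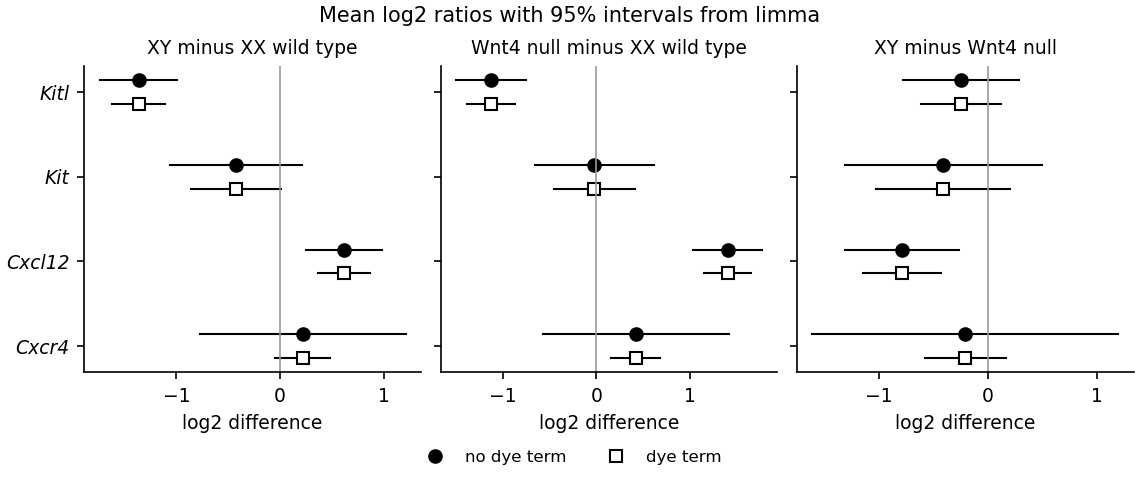
Mean log2 differences of the 4 genes with 95% intervals from limma, not adjusted for the number of spots, for XY minus XX wild type, Wnt4 null minus XX wild type and XY minus Wnt4 null; circles are the fit without and squares the fit with a dye term. The intervals of Kitl and Cxcl12 lie on 1 side of 0 in both fits in the first and middle panels, as does Cxcr4 in Wnt4 null with the dye term alone, and in the right panel Cxcl12 alone of the 4 genes does.

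The supporting cells of the XX gonad and the stroma were set beside the ligands. Of 13 measured XX supporting cell genes, 10 were below 0 on both XY arrays (against 21.9% of all named genes) and 8 on both Wnt4 null arrays (against 15.8% of all named genes), and 0 above 0 on both in either. Their medians were -1.001 in XY (-1.30 and -0.56 on the arrays) and -0.43 in Wnt4 null (-1.19 and -0.25). Follistatin, encoded by Fst, binds activins, and Fst had -2.49 and -3.40 in XY and -3.02 and -2.21 in Wnt4 null. Phlda2, an imprinted gene, had -3.09 and -3.27 in XY and -2.61 and -2.22 in Wnt4 null, and Irx3, an Iroquois homeobox gene, -2.67 and -2.70 in Wnt4 null. Of 14 Sertoli cell genes, 11 were above 0 on both XY arrays (against 22.3% of all named genes; median 0.79), with Cst9, a cystatin-family gene, at 3.13 and 3.23 and Ptgds, a prostaglandin D synthase gene, at 2.53 and 3.34. In Wnt4 null 6 of the 14 were above 0 on both arrays (against 16.0% of all named genes; median 0.30). Kitl was below 0 on both arrays of each pair, as most of the XX supporting list was. This list and the other cell type lists were written with earlier results of these data known, so their counts are no test. The part of XX supporting cells in the Kitl values was not tested.

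Stroma genes, the usual source of Cxcl12, were above 0 on both arrays for 14 of 18 genes in XY, against 22.3% of all named genes, and 11 of 18 in Wnt4 null, against 16.0%. Medians were 0.40 in XY and 0.37 in Wnt4 null. By size 7 and 3 were at least 1.5-fold higher (against 1.37% and 0.554% of all spots) and 0 lower. Igfbp7, whose secreted product binds insulin-like growth factors, had 1.94 and 2.38 in XY and 1.74 and 1.67 in Wnt4 null. Gli1, a target and effector of Hedgehog signals, had 1.44 and 1.40 in XY, and Tcf21, which encodes a mesenchymal bHLH factor, 1.15 and 1.27 in Wnt4 null. Endothelial genes, beside Cxcr4, were above 0 on both arrays for 15 of 19 in XY (against 22.3% of all named genes) and 8 of 19 in Wnt4 null (against 16.0%), with medians of 0.24 and 0.18. Thbd, the gene of thrombomodulin, had 1.47 and 1.19 in XY and 1.70 and 1.95 in Wnt4 null, and Ramp2, a receptor partner for adrenomedullin, 0.70 and 0.81 in XY. The part of stroma or endothelium in the Cxcl12 and Cxcr4 values was not tested.

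The remaining markers were measured as a check on other cells. Macrophage genes had a median of -0.03 in XY, where 4 of 11 were below 0 on both arrays and 0 above (against 21.9% and 22.3% of all named genes). In Wnt4 null their median was 0.40, with 5 of 11 above 0 on both arrays and 0 below (against 16.0% and 15.8%). No macrophage gene passed the limit of size in XY or Wnt4 null (2.69% and 1.05% of all spots did). Limma called none in either fit (with the dye term 2.69% and 0.196% of all spots were called, without it 0%). At such shares a count of 0 among 11 genes says little about them. Fetal Leydig and adrenal-like genes had medians of 0.36 and 0.21 over 7 genes. In XY 3 were above 0 on both arrays and 1 below (against 22.3% and 21.9% of all named genes). In Wnt4 null 2 were above and 0 below (against 16.0% and 15.8%). Hsd17b3, put on this list as an enzyme gene of testosterone synthesis, had 1.20 and 2.34 in XY and -0.13 and 1.72 in Wnt4 null. Which cells carried Hsd17b3 was not tested, so its values are not a reading of Leydig cells. Cyp11a1, which starts steroid synthesis, had 0.05 and -0.16 in XY and 1.25 and 1.42 in Wnt4 null. Genes of mesonephric ducts, tissue that was cut away, had medians of -0.20 and -0.07 over 10 genes. In XY 5 were below 0 on both arrays and 0 above (against 21.9% and 22.3% of all named genes), and 5 had opposite signs. In Wnt4 null 2 were below and 0 above (against 15.8% and 16.0%), and 8 had opposite signs. Krt18 and Cldn7, an epithelial keratin and a claudin, were at -0.84 ± 0.08 and -0.67 ± 0.06 in XY, where the list's means reached 0.29. Red blood cell genes had medians of 0.02 and 0.09 over 5 genes. Limma with the dye term called 1 of the 5 higher in XY (1.36% of all spots were). Opposite signs were seen for 3 of the 5 in XY and 5 in Wnt4 null, against 55.8% and 68.3% of all named genes.

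**Figure D4:**
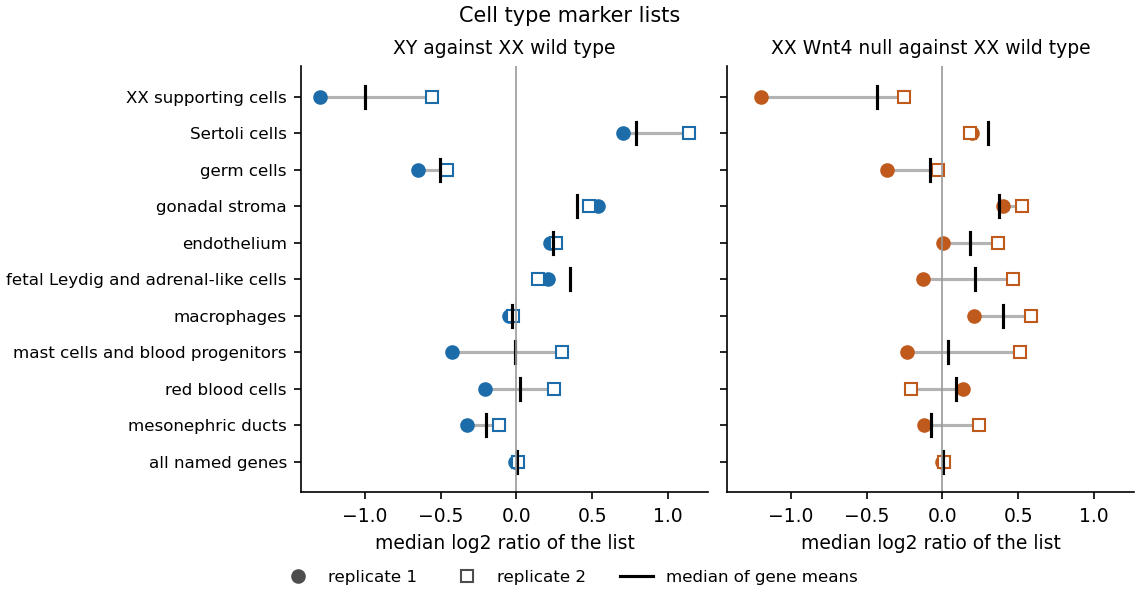
Median log2 ratio to XX wild type (horizontal axis) of each cell type marker list, for XY left and Wnt4 null right; circles are replicate 1, squares replicate 2 and black bars the median of gene means. The XX supporting and germ cell lists lie below 0 on all 4 arrays, the Sertoli, stroma and endothelium lists lie above 0 on all 4 (endothelium at 0.003 on Wnt4 null replicate 1), and the median over all named genes lies near 0.

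Of the genes that carry the Kit signal, 28 of 40 had 4 values, with medians of 0.02 in XY and 0.02 in Wnt4 null. Limma without the dye term called 0, and with it 2 of 28 higher in XY (1.36% of all spots were) and 0 in Wnt4 null (0.130% were). Spry1, a feedback inhibitor of receptor kinase signals, had 1.02 and 0.91 in XY (limma adjusted p = 0.0250 with and 0.286 without the dye term) and 0.38 and 0.22 in Wnt4 null. The other, Dusp6, a phosphatase gene that acts on Erk and was named after its values were seen, had 0.40 and 1.09 in XY. Ets1, a transcription factor gene, was blank on 1 XY array and had 0.40 on the other, and 0.73 and 0.69 in Wnt4 null.

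The genes around Cxcl12 and Cxcr4 were measured for 26 of 36, with medians of 0.05 in XY and 0.10 in Wnt4 null. Limma with the dye term called 1 of 26 lower in XY, where 1.33% of all spots were called lower. This was Rgs2, which shortens G protein signals, at -1.27 and -1.37 (limma adjusted p = 0.0186 with and 0.185 without the dye term). Rgs2 had -0.19 and -0.35 in Wnt4 null. Grk5, a kinase gene of G protein-coupled receptors, was blank on XY replicate 1, had 0.77 on replicate 2, and 0.61 and 0.82 in Wnt4 null. Ackr3, the other receptor for Cxcl12, had a value on Wnt4 null replicate 1 alone (-1.15), so it could not be tested.

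Of 52 other chemokines and chemokine receptors, 30 had 4 values. None was past the limit of size in XY or Wnt4 null (2.69% and 1.05% of all spots were). Limma called 0 of them in either fit (with the dye term 2.69% and 0.196% of all spots were called, without it 0%). At such shares a count of 0 among 30 genes says little about them. Of the 30, 24 had opposite signs in XY and 24 in Wnt4 null, against 55.8% and 68.3% of all named genes. As with Cxcr4, 15 of them (50%) were below 0 on both replicate 1 arrays and above 0 on both replicate 2 arrays, a pattern of 22.1% of all named genes. Among the kinases related to Kit and their ligands, 10 of 14 were measured. Pdgfra, a receptor of platelet-derived growth factors on stroma, had 0.72 and 0.92 in XY (limma adjusted p = 0.0386 with and 0.457 without the dye term) and 0.49 and 0.94 in Wnt4 null. Pdgfrb, its sister receptor, had -0.30 and 0.29 in XY and -0.06 and 0.48 in Wnt4 null, and Flt3, a receptor of blood progenitors, -1.30 and 0.84 in XY and -1.34 and 0.78 in Wnt4 null.

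**Figure D5:**
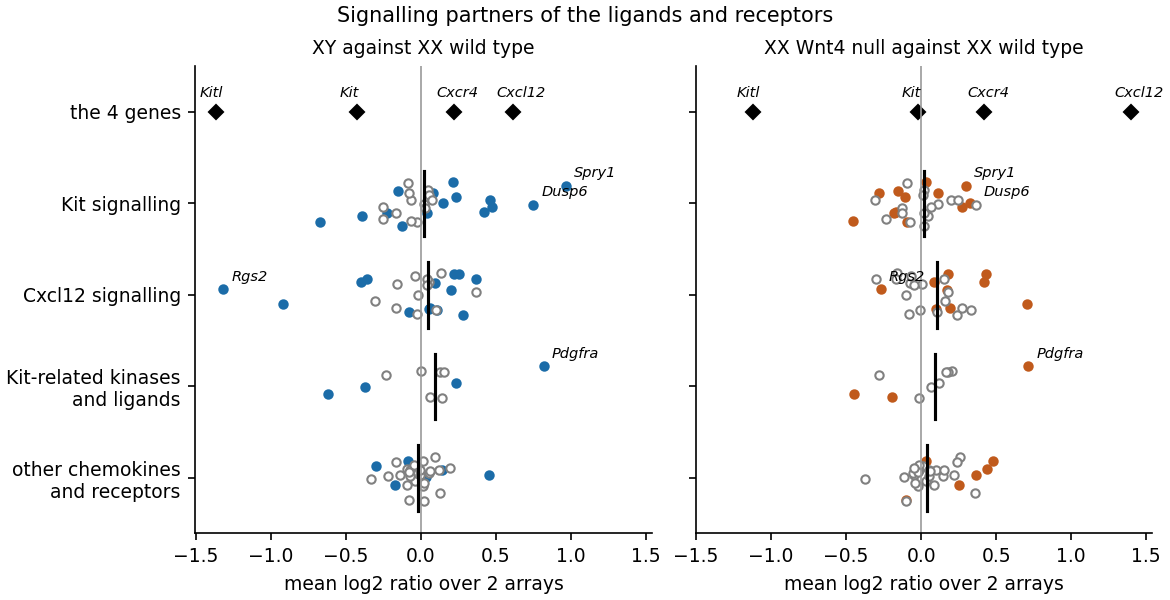
Mean log2 ratio to XX wild type over 2 arrays (horizontal axis) for the 4 genes (diamonds) and the genes of each signalling list with 4 values, XY left and Wnt4 null right; filled circles have the same sign on both arrays, open circles do not, and bars are list medians. Kitl lies outside all 4 lists in the Wnt4 null panel, as does Cxcl12, and most chemokines are open circles near 0.

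The genes with the pattern most like each member over the 4 arrays were named by Euclidean distance between log2 ratios. Nearest to Kitl were Nrn1 (distance 0.29), Olfm1 (0.30) and Tkt (0.33), with all 4 arrays below -0.8 for each. Nearest to Cxcl12 were Ptn (0.44), Lpl (0.46) and Hpgd (0.56), which had 1.15 to 1.67 in Wnt4 null and 0.15 to 0.80 in XY gonads. Kit had Adgre5, Psmb8 and Zfp292 at 0.17 to 0.18, and Cxcr4 had Nptx2, Ppdpf and Aplp1 at 0.13 to 0.17.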

How the data were processed

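Total RNA of gonads pooled per genotype was compared on 4 spotted oligonucleotide arrays, per the labels. For each array the authors deposited 1 value per spot, read here as a log2 ratio of the dyes because the lowest value of the first column, -6.64, is the log2 of 0.01; the background correction, normalization and numerator are not given in the sources used here. Deposited medians were -0.0019 and -0.0172 (XY replicates 1 and 2) and 0.00840 and -0.0388 (Wnt4 null), so centring near 0 was done by an unknown method. Between 12866 and 14533 spots per array had values, and precision is limited by having 4 arrays.

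Spot numbers were matched to the annotation by exchanging rows and columns within printed blocks of 552 spots; probe pairs of 549 genes then correlated in XY at Spearman's rho = 0.27, against -0.004 over 511 genes in the deposited order, across genes, which are not independent. Symbols were updated by Entrez identifier (13908 spots matched, 0 altered) from a RefSeq table of GRCm38.p6; 14010 spots had 1 symbol, 13 several. XY replicate 1 was turned in sign, arrays were median-centred, and the 12264 spots with 4 values entered 1 limma fit (limma 3.58.1, R 4.3.3) with Benjamini-Hochberg adjustment over all spots. The fit was also run on simulated log ratios with changes of known size, which checked the mean estimates and not the p-values or calls. The simulation gave each spot a dye effect shared by the 4 arrays, as the dye term assumes. Named are the 4 members; genes of the signalling lists past 1.5-fold with the same sign on both arrays of a comparison, with the related receptors; the most changed markers per list; and the 3 nearest genes. Members and lists were chosen with earlier results of these data known. XX wild type was the comparator on each array, so its spread is part of every ratio and cannot be told apart from that of the other RNA.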

Additional observations from a re-analysis of the deposited data

How the results depend on the processing

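Without a dye term, limma kept each of the 4 genes above an adjusted p of 0.05 in each comparison under every centring, scaling, direction and left-out array tried. The dye term called 330 spots in XY and 24 in Wnt4 null; this count was 618 and 150 with the dye term and centring in printed blocks, 414 and 55 with deposited centring, and 1078 and 138 with scaled arrays (settings pairing the dye term with another choice were added after seeing the data). Between XY and Wnt4 null these gave 7 calls in blocks and 68 with scaled arrays. Leaving out 1 array gave 0 to 3 calls in XY. A 2-fold limit left 118 spots in XY and 28 in Wnt4 null, and Cy3 over Cy5, which turns Wnt4 null replicate 1 alone, gave 706 there. The Kitl mean with the dye term was -1.37 in XY, with -1.39 in blocks, -1.37 with deposited centring and -1.51 scaled, and in Wnt4 null -1.08, -1.14 and -1.03 under these. Cxcl12 with the dye term averaged 1.40 in Wnt4 null, 1.44 in blocks, 1.38 with deposited centring and 1.28 scaled, and in XY 0.59 in blocks and 0.68 scaled.

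Direction decides the signs. Turning all 4 arrays would also put the Eif2s3y spot used for the turn below 0 and Xist above 0 on both XY arrays. That is the reverse of what the male and female labels lead to. With all 4 arrays turned, XY had Kitl 1.37, Kit 0.43, Cxcl12 -0.62 and Cxcr4 -0.22, Wnt4 null had Kitl 1.12, Kit 0.021, Cxcl12 -1.40 and Cxcr4 -0.42, and XY minus Wnt4 null was 0.24, 0.41, 0.78 and 0.20. With both Wnt4 null arrays turned, the Wnt4 null values were these again, and XY minus Wnt4 null was -2.49 for Kitl, 2.01 for Cxcl12 and 0.64 for Cxcr4. With Cy3 over Cy5, Wnt4 null had 0.074 for Kitl, 0.40 for Kit and 0.021 for Cxcl12, with no member past the limit of size there, and XY minus Wnt4 null was 0.59 for Cxcl12 and -1.44 for Kitl. As deposited, XY had -0.019 for Kitl, -0.0021 for Kit and -0.049 for Cxcl12, with no member past the limit of size, and XY minus Wnt4 null was 1.10 for Kitl, 0.019 for Kit and 0.016 for Cxcr4. Leaving out 1 array gave Kit -0.42 to 0.38 in Wnt4 null and -0.80 to -0.01 in XY minus Wnt4 null, and Cxcr4 -0.22 to 0.65 in XY, -0.12 to 0.96 in Wnt4 null and -0.75 to 0.34 in XY minus Wnt4 null. The cause was not tested. List medians counted per probe moved by less than the spread between arrays. The limit of size needs both arrays, so it was not run with 1 left out. Signal over background was not analysed here. The labels number no replicates; the numbers used here follow accession order, and the dye term, which groups the arrays by their labelled dye orientation, is the same block as these numbers.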
